A study of Mus musculus with 3 samples.

Results

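Genes of the splicing machinery were followed on 3 arrays of LNC cells, a malignant B-1 cell line whose source was a lymph node taken from a mouse of the New Zealand Black (NZB) strain aged 1 yr. All groups are the same line, and RNA of each was hybridised to 1 array. The first group received an antisense oligonucleotide against IL-10 at 20 µM, the second a scrambled version of that oligonucleotide at 20 µM, which controls for effects of oligonucleotides as such, and the third was left untreated. RNA was taken at 24 h. Members were all probe sets whose single annotated symbol begins with Srsf, Sfrs, Hnrnp, Hnrp, Snrp, Sf3a, Sf3b, U2af or Prpf, and 69 of 12588 probe sets met this rule. They stand for 51 of the 8220 genes with such a probe set: 9 of SR proteins (16 probe sets), 16 of hnRNPs (21 probe sets) and 26 of core spliceosome parts (32 probe sets). No symbol beginning Sfrs or Hnrp was found, since the annotation uses the newer names. A further 8 probe sets that list a member beside another gene or pseudogene, such as those of Snrpa, Snrpd1, Snrpd2 and Hnrnpa3, were left out.

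The spliceosome removes introns from nuclear transcripts. Its core is made of small nuclear ribonucleoproteins (snRNPs), in which a ring of Sm proteins holds a small nuclear RNA, and of factors that find the branch point and the end of the intron. SR proteins, named for repeats of serine and arginine, bind exons and mostly favour their inclusion, while hnRNPs coat the transcript and often favour exon skipping. In B cells these regulators are known to set, among other choices, which exons of Ptprc (CD45) are kept.

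Each of the 3 arrays was a single sample, so no difference has a replicate check and no test was run. As a yardstick of error, a probe set's difference was set beside the gap between the scrambled and untreated arrays. The yardstick is the 95th percentile of their absolute log2 difference over the 300 probe sets nearest in level. It rests on 1 pair of arrays that differ in treatment, so any effect of the scrambled oligonucleotide is within it. Each array of the pair also serves in an antisense comparison. Intensities, always given here in the order antisense, scrambled, untreated, are linear and were scaled to the same trimmed mean on each array. A probe set past the filter was one above a noise floor of 595.9 on at least 1 array, and values under the floor were set to it before log2 was taken. Of the 69 members, 61 passed this filter, and 58 of them lay over the floor on each array. The median yardstick of the 61 was 0.46 on the log2 scale (1.38-fold), against 0.70 (1.62-fold) over all 6127 probe sets past the filter. The 8 that did not pass are the only probe sets of Srsf6 and Prpf4b, both probe sets of Prpf39, and 1 each of Srsf10, Prpf19, Snrpa1 and Hnrnpab.

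Facts of the arrays as a whole bear on every value below. B cell markers supported the label of the line: 5 of 7 on the array were above the floor on the 3 arrays, with a summed intensity of 63774 (antisense), 87395 (scrambled) and 84099 (untreated). Cd22 and the B-1 marker Cd5 were below the floor throughout. Of 6 T cell markers only Cd4 was above the floor on the 3 arrays, of 6 myeloid markers only Cd14, of 4 stromal markers only Col1a1 and of 2 erythroid markers 0. Summed intensities lay between 1508 and 2886 for T cell, 1775 and 3338 for myeloid and 1006 and 1220 for stromal markers. For erythroid markers they were 2233 (antisense), 922 (scrambled) and 1628 (untreated), with the globin gene Hba-a1 above the floor on the antisense and untreated arrays. Their part in the results was not tested. Il10, the targeted gene, read 13946 (antisense), 5616 (scrambled) and 5164 (untreated), opposite to a loss of its RNA, so directions drawn from that array rest on its label. The 6 spike-in controls used for an alternative scaling were 0.63 lower on the log2 scale there than on the untreated array and 0.51 lower than on the scrambled array. The 3-prime over 5-prime ratio of 18S ribosomal RNA was 8.13 (antisense), 4.48 (scrambled) and 1.72 (untreated), while that of Gapdh lay between 0.931 and 1.01. The 5-prime 18S probe set read 639.7 on the antisense array, close to the floor of 595.9, so the ratio of 8.13 is uncertain. The part of the spike-in levels or of these ratios in the values below was not tested.

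Members passed a fixed fold less often than the average probe set in the antisense comparisons and about as often between the controls. Against the untreated array, 5 of 61 probe sets (8.2%) on the array labelled antisense were at least 1.5-fold apart, where 17.6% of all probe sets past the filter were. Against the scrambled array it was 4 of 61 (6.6%), where 20.1% of all were. Between the scrambled and untreated arrays 8 of 61 (13.1%) were, close to the 12.9% of all probe sets. At 2-fold the numbers were 2, 1 and 2, with 4.85%, 6.02% and 3.10% of all probe sets. A fixed fold takes no account of level, and the median yardstick of members was smaller, at 0.46 against 0.70 over all. By the yardstick, which is matched for level, members did not differ less often. Against untreated, 9.8% of them were lower and 1.6% higher, where 4.1% and 4.9% of all were. Against scrambled it was 11.5% and 1.6%, where 5.7% and 5.4% of all were. The shares were not tested against each other, and both antisense comparisons share 1 array.

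The class medians lay at different levels. With 1 probe set per gene, that of highest mean level, the median log2 difference from untreated was -0.22 for 8 SR protein genes, -0.21 for 16 hnRNP genes and 0.00 for 24 core genes, where the median over all 4643 genes was 0.00. Against the scrambled array the medians were -0.01, -0.01 and 0.05, and again 0.00 over all genes. Both oligonucleotide arrays thus read below the untreated array for the regulators, since the scrambled array differed from untreated by medians of -0.17 for SR proteins, -0.21 for hnRNPs and -0.05 for core parts. With spike-in scaling the medians against untreated turned positive, at 0.41, 0.42 and 0.62, while that of all genes moved to 0.58. Relative to all genes the SR proteins then stood at -0.18, the hnRNPs at -0.16 and the core parts at 0.04. These comparisons share the untreated array and are not independent of each other, and the difference between classes was not tested.

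Beyond the yardstick, SR proteins and hnRNPs were found on the lower side alone, except with spike-in scaling. Against untreated, 2 of 14 SR probe sets and 3 of 20 hnRNP probe sets were lower by more than the yardstick and 0 were higher. Among all probe sets 4.08% were lower and 4.88% higher by this measure. Both SR probe sets lower than untreated, 95791_s_at of Srsf2 and 101004_f_at of Srsf3, carry suffixes and can bind more than 1 transcript. No SR probe set without a suffix was beyond the yardstick against untreated. Against scrambled the counts were again 2 and 3 lower and 0 higher, with 5.75% of all probe sets lower and 5.37% higher. Core parts went both ways, with 1 of 27 lower and 1 higher against untreated and 2 lower and 1 higher against scrambled. With spike-in scaling, which shifts nearly every value up on the array labelled antisense, 17 members were beyond the yardstick on the higher side of both controls and 0 on the lower side. The median difference over all genes was then 0.58 against untreated and 0.48 against scrambled. The share of all probe sets beyond the yardstick under that scaling is not given here, so these counts are not a result about the members.

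**Figure D1:**
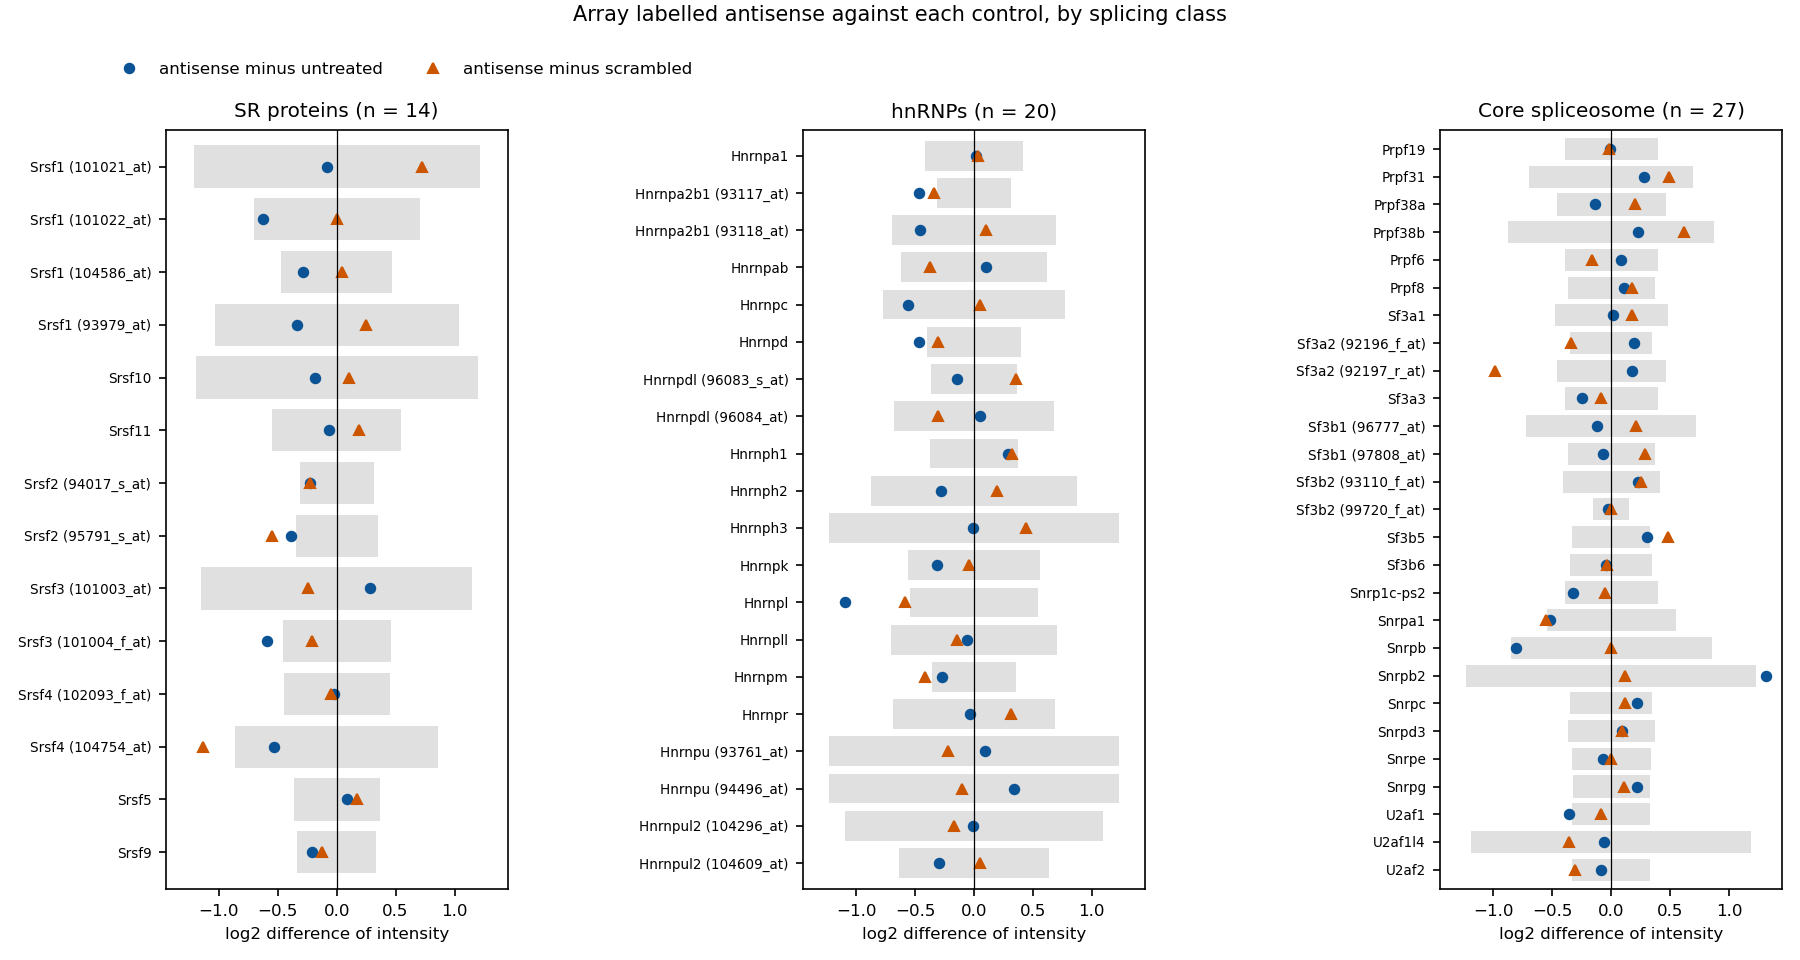
Log2 difference of intensity on the array labelled antisense from untreated (circles) and from scrambled (triangles) for the 61 member probe sets past the filter, 1 row each, by class. Grey bars span the yardstick on both sides of 0. Hnrnpl, Srsf2 (95791_s_at) and Hnrnpa2b1 (93117_at) have both symbols left of their bar, and no probe set has both to the right.

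Only 3 member probe sets were beyond the yardstick against both controls in 1 direction, and each was lower: 1 of Hnrnpl, 1 of Srsf2 and 1 of Hnrnpa2b1. This is 4.92% of the 61, near the 5.26% of all probe sets past the filter that were beyond it against both in 1 direction. Of all probe sets, 2.50% were lower in this way and 2.76% higher. Hnrnpl encodes an RNA-binding protein of CA-rich elements that is known to promote skipping of CD45 exons. Its probe set (95232_at) read 3517 (antisense), 5273 (scrambled) and 7509 (untreated). The 3 values are spread evenly, with the scrambled array about midway on the log2 scale. The differences were -1.09 from untreated, or 2.14-fold lower, and -0.58 from scrambled, with a yardstick of 0.55, and the scrambled array itself lay 0.51 below untreated (log2 difference -0.51). Hnrnpl was thus the only hnRNP past 2-fold in any comparison. It stayed lower with spike-in scaling, at -0.46 and -0.07, both within the yardstick.

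Srsf2 encodes SC35, an SR protein that binds exonic enhancers and stays in the nucleus. Its probe set 95791_s_at read 9024 (antisense), 13175 (scrambled) and 11781 (untreated). Its second probe set, 94017_s_at, read 46530.1, 54503 and 54616 on the same arrays. Both probe sets are thus lowest on the array labelled antisense, and the control arrays lie close together. The log2 differences were -0.38 from untreated and -0.55 from scrambled for the first, with a yardstick of 0.35, and -0.23 from either control for the second, within its yardstick of 0.32. With spike-in scaling the first stood at 0.25 and -0.03. Both are of the _s type, which can bind more than 1 transcript.

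Hnrnpa2b1 encodes hnRNP A2/B1, a packaging and transport protein of mRNA. The probe set 93117_at read 27405 (antisense), 34663 (scrambled) and 37884 (untreated), with log2 differences of -0.47 from untreated and -0.34 from scrambled against a yardstick of 0.32. The other, 93118_at, read 3531, 3294 and 4844, so the untreated array was highest in both but the order of the oligonucleotide arrays differed. Its differences were -0.46 and 0.10, within a yardstick of 0.70. The call of 93117_at against scrambled was lost with lowess centring, at -0.27, and with quantile normalization, at -0.28, and spike-in scaling turned both of its differences positive, to 0.16 and 0.17.

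The promoters of these genes are shown because 1 probe set of each was lower than both controls beyond the yardstick. That they read low is thus how they were picked and not a further result. Each runs from 250 bases before to 50 after a RefSeq transcription start of build GRCm38.p6, 5′ to 3′ on the strand of the gene. Capitals mark the motifs CCGGAA, the core of sites of ETS factors, CCAAT, and GGGCGG, a GC box bound by Sp factors, on either strand. For Hnrnpa2b1, 1 of 2 listed starts is shown.
Hnrnpl promoter, chr7:28810640-28810939, + strand: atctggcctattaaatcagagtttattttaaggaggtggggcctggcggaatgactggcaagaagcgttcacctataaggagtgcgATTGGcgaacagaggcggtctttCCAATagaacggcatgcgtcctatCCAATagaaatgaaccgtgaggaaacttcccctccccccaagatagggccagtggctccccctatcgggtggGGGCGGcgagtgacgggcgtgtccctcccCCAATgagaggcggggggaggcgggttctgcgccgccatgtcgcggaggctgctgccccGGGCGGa
Srsf2 promoter, chr11:116853045-116853344, - strand: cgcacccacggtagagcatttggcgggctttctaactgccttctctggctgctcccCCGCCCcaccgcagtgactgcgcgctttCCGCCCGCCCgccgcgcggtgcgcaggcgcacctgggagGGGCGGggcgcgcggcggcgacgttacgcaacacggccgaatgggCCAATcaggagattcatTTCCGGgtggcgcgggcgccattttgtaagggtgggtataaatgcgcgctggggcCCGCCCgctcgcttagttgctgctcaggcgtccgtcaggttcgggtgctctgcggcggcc
Hnrnpa2b1 promoter, chr6:51469845-51470144, - strand: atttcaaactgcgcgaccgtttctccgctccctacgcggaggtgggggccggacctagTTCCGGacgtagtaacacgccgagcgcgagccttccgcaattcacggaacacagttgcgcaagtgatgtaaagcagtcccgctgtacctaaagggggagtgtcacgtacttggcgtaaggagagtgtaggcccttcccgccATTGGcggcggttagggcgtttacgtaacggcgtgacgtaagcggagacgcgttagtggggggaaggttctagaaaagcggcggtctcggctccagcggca
Of these motifs CCAAT occurs in each. The Hnrnpl promoter holds 4 matches to it, that of Srsf2 1 and that of Hnrnpa2b1 1. CCGGAA has 0, 1 and 1 matches, and GGGCGG 2, 5 and 0, some of which overlap.

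Promoters of the members were also searched as a set, with 57 promoters found for 45 of the 51 genes. A match is a description of the letters and not a bound site. CCGGAA occurred in 29 of 57 (50.9%), against 14.9% of all 32851 promoters and 28.5% of the 4811 promoters of named genes past the filter. By class it was in 16 of 25 core promoters (64.0%), 7 of 12 SR promoters (58.3%) and 6 of 20 hnRNP promoters. The hnRNP share was thus close to the 28.5% of genes past the filter. The higher share of CCGGAA among members came from the core and SR classes, and the shares were not tested. CCAAT was in 49.1% of member promoters, against 37.5% of those of genes past the filter, and by class in 33.3% of SR, 60.0% of hnRNP and 48.0% of core promoters. GGGCGG was in 70.2% against 61.4%, and by class in 91.7%, 75.0% and 56.0%. TATAAA was in 7.02% against 7.75%, with 2 of 12 SR, 2 of 20 hnRNP and 0 of 25 core promoters. The other motifs searched were CACGTG (E-box) at 7.02% against 10.9%, TGACGTCA (CRE) at 1.75% against 2.97%, AAGATGGC (YY1) at 3.51% against 4.80% and the palindrome of NRF1 at 1.75% against 2.27%.

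Among the other SR proteins, Srsf1, the founding SR splicing factor, was highest on the untreated array in 4 of 4 probe sets. Its probe set 93979_at read 1489 (antisense), 1252 (scrambled) and 1881 (untreated). The other 3 read 1495, 907 and 1584, then 617, 599 and 754, and last -192, 492 and 923, in the same order of arrays. The scrambled array was lowest in 3 of these, and in the fourth both oligonucleotide arrays were below the floor and have no order. Differences from untreated ran from -0.08 to -0.63 for the array labelled antisense and each lay within its yardstick. Srsf3, the smallest SR protein and an adaptor of mRNA export, gave 2 readings of opposite sign against untreated. The family probe set 101004_f_at read 4995, 5795 and 7548 on the antisense, scrambled and untreated arrays, a log2 difference of -0.60 from untreated, beyond its yardstick of 0.46. The probe set 101003_at read 920, 1089 and 758, a difference of 0.28 within 1.15. Without suffixed probe sets the sign for Srsf3 thus changed, but by a difference that its yardstick does not tell from 0. Against scrambled both probe sets were lower, at -0.21 for 101004_f_at and -0.24 for 101003_at.

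Srsf4 was past 2-fold against the scrambled array, as no other member was. The probe set 104754_at read 1279 (antisense), 2818 (scrambled) and 1846 (untreated), so the scrambled array was highest. The log2 differences were -1.14 from scrambled, beyond the yardstick of 0.86, and -0.53 from untreated, within it. A family probe set of Srsf4 read 638, 661 and 650, little above the floor. Srsf5 was the only SR gene higher than both controls, at 9599 against 8522 and 9014, with differences of 0.17 from scrambled and 0.09 from untreated that lie within the yardstick of 0.37. Srsf9 read 11398, 12458 and 13221 on the antisense, scrambled and untreated arrays. Srsf11 read 5358, 4690.4 and 5597, and Srsf10, which turns into a repressor when dephosphorylated, 1303, 1210.0 and 1483. The untreated array was highest for these last 3 genes, each within its yardstick. Srsf6 was below the floor on the 3 arrays, at 118, -185 and -111.

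Of the remaining hnRNPs, Hnrnpd and Hnrnpm read below both controls on the array labelled antisense and were beyond the yardstick against 1 of them. Hnrnpd encodes AUF1, which binds AU-rich elements and speeds decay of cytokine mRNAs. It read 5946 (antisense), 7333 (scrambled) and 8193 (untreated). Its log2 differences were -0.46 from untreated and -0.30 from scrambled, with a yardstick of 0.40. Hnrnpm read 14248, 18986 and 17161 on the same arrays, with differences of -0.27 from untreated and -0.41 from scrambled against 0.35. With spike-in scaling Hnrnpd turned to 0.17 against untreated and Hnrnpm to 0.10 against scrambled. Hnrnpc, which binds uridine tracts, separated the untreated array from both others, at 1820 (antisense), 1759 (scrambled) and 2678 (untreated). Its difference of -0.56 from untreated lay within the yardstick of 0.77.

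Hnrnph1, a binder of G-runs, read above both controls on the array labelled antisense. It read 10063 (antisense) against 8062 (scrambled) and 8225 (untreated), with differences of 0.32 and 0.29 within the yardstick of 0.37. Its relatives did not share this order. Hnrnph2 read 713, 622 and 868 and Hnrnph3 1385, 1017 and 1395 on the antisense, scrambled and untreated arrays. Hnrnpa1, a repressor of exon inclusion, was nearly level at 7096, 6938 and 6999. Hnrnpll, the relative of Hnrnpl known for CD45 splicing in lymphocytes, read 3614, 3987 and 3772, with differences of -0.06 from untreated and -0.14 from scrambled. Hnrnpll thus also read below both controls, but within its yardstick of 0.705. A difference from untreated as large as that of Hnrnpl (-1.09) would have passed this yardstick and was not seen. The -0.58 of Hnrnpl from scrambled is within it, so for that comparison the Hnrnpll reading cannot decide. The difference between the 2 genes was not tested.

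Several hnRNPs placed the scrambled array at one end. Hnrnpab read 3664 (antisense), 4743 (scrambled) and 3425 (untreated). Hnrnpdl went 2 ways, with 96083_s_at at 10341, 8089 and 11449 and 96084_at at 2232, 2765 and 2158, so the scrambled array was lowest in one and highest in the other. Hnrnpr, at 3053, 2452 and 3121, was also lowest on the scrambled array. Hnrnpu, the scaffold attachment factor, read 1146, 1338 and 1076 in 1 probe set and 1224, 1313 and 968 in the other, with the scrambled array highest in both. Hnrnpk, a binder of cytosine-rich RNA, read 4001, 4131 and 4962. Hnrnpul2 read 3218, 3115 and 3953 in 1 probe set and 1454, 1631 and 1465 in the other. The untreated array was highest for Hnrnpk and for the first of these. Antisense differences from either control were within the yardstick for each gene of this paragraph.

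**Figure D2:**
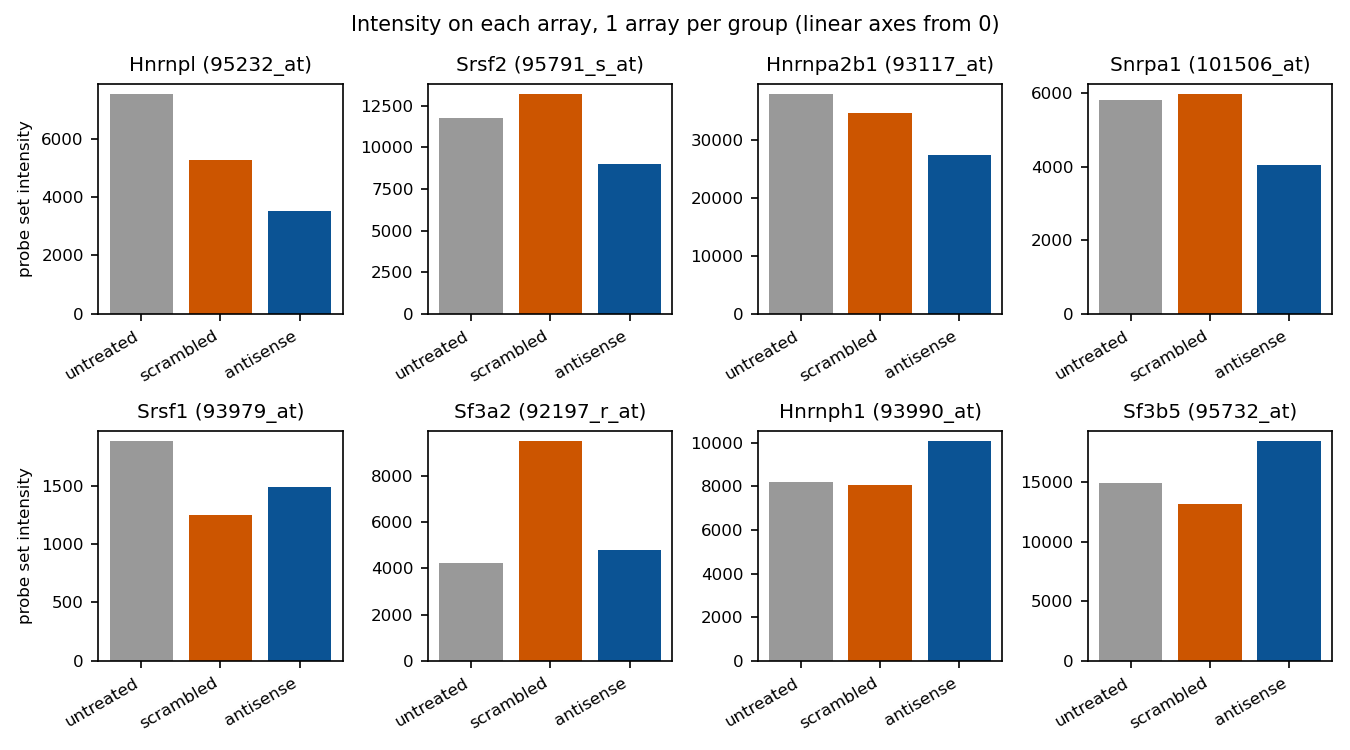
Intensity of 8 member probe sets on the untreated, scrambled and antisense arrays, 1 bar per array, on linear axes that start at 0 and differ between panels; there are no error bars because each group is 1 array. Hnrnpl steps down from 7509 to 5273 to 3517, Sf3a2 (92197_r_at) is high on the scrambled array at 9485, and Hnrnph1 and Sf3b5 are highest on the array labelled antisense.

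In the core spliceosome, proteins of the U2 snRNP, which pairs with the branch point, were among those that differed. Snrpa1, which encodes its A′ protein, read 4057 (antisense), 5964 (scrambled) and 5808 (untreated). The controls lay together and the array labelled antisense below them, by -0.56 on the log2 scale from scrambled, slightly beyond the yardstick of 0.55, and by -0.52 from untreated, within it. Its partner Snrpb2, read by a family probe set, was at 1775, 1635 and 714, so both oligonucleotide arrays were above untreated. The differences from untreated were 1.31, or 2.49-fold, on the array labelled antisense and 1.20 (2.29-fold) on the scrambled array, around a yardstick of 1.23. The untreated value is close to the floor, and with a floor of 4 robust standard deviations the antisense difference was 0.57.

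Sf3a2, a subunit of the SF3a complex of U2, was high on the scrambled array in both of its probe sets. The probe set 92197_r_at read 4775 (antisense), 9485 (scrambled) and 4235 (untreated), and 92196_f_at read 15715, 19861 and 13748. The scrambled array stood 1.16 above untreated on the log2 scale in the first, or 2.24-fold, and 0.53 in the second. The array labelled antisense differed from untreated by 0.17 and 0.19 and from scrambled by -0.99 and -0.34. Both probe sets were built on 1 accession and carry suffixes, so they are not independent readings of the gene. Sf3a1 read 5740.3, 5082 and 5687 and Sf3a3 7034, 7478 and 8353, and neither shared the high value on the scrambled array.

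Sf3b5, a small subunit of the SF3b complex that holds the branch point, read above both controls. It read 18411 (antisense), 13175 (scrambled) and 14943 (untreated). Its log2 difference was 0.48 from scrambled, beyond the yardstick of 0.33, and 0.30 from untreated, within it. Sf3b1, the largest subunit, was lowest on the scrambled array in both probe sets, at 9397, 7715 and 9860.2 and at 3234, 2800.0 and 3513. Sf3b2 read 7482, 6294 and 6407 in 1 family probe set, and 376, 568 and 608 in the other, which was above the floor on the untreated array alone. Sf3b6, which contacts the branch site adenosine, was level at 12166, 12509 and 12568.

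The U2AF genes, which find the 3′ end of the intron, read below both controls on the array labelled antisense in 3 of 3, where 31.6% of all genes past the filter did. U2af1, which reads the terminal AG, was at 13768 (antisense), 14657 (scrambled) and 17628 (untreated). Only its difference from untreated, -0.36 against a yardstick of 0.33, was beyond the yardstick, and spike-in scaling turned it to 0.27. U2af2, which binds the polypyrimidine tract, read 24642, 30571 and 26181, with differences of -0.31 from scrambled and -0.09 from untreated. U2af1l4, a relative of U2af1, read 977, 1252 and 1022, and both genes were within the yardstick against either control.

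Of the Sm and U1 genes, 4 differed little between the arrays. Snrpg read 33247 (antisense), 30801 (scrambled) and 28566 (untreated), Snrpd3 9263, 8680.1 and 8704, and Snrpe 21463, 21438 and 22527. Snrpc, the U1 protein that helps choose the 5′ splice site, read 13400, 12331 and 11508. Their differences lay between -0.07 and 0.22, within yardsticks of 0.33 to 0.37. Snrpb, read by a reduced probe set, was above the floor on the untreated array alone, at 1047 (untreated) against -468 (antisense) and 518 (scrambled). Both oligonucleotide arrays were at the floor there, -0.81 from untreated on the log2 scale, and with a floor of 1 robust standard deviation the antisense difference was -1.81. The pseudogene Snrp1c-ps2, which meets the symbol rule through a family probe set, read 7126, 7378 and 8936.

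Prpf genes, which serve the tri-snRNP and the activation of the spliceosome, showed no difference beyond the yardstick. Prpf8, the protein at the heart of the catalytic centre, read 9406 (antisense), 8315 (scrambled) and 8720.4 (untreated). Prpf19, a ubiquitin ligase, was at 7308, 7418 and 7357. Prpf31, a U4/U6 protein, read 4511, 3206 and 3712, with differences of 0.49 from scrambled and 0.28 from untreated against a yardstick of 0.70. Prpf38b, at 2031, 1327 and 1740, differed by 0.61 and 0.22 against 0.87. Prpf6 read 7052, 7872 and 6662 and Prpf38a 5974, 5199 and 6579. Prpf4b, a kinase, and Prpf39 were below the floor on the 3 arrays.

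The order of the 3 arrays, whatever the size of the gap, differed from that of the average probe set. The untreated array was highest in 30 of 61 member probe sets (49.2%), where it was in 28.8% of all probe sets past the filter. By class it was highest in 9 of 14 SR (64.3%), 11 of 20 hnRNP (55.0%) and 10 of 27 core probe sets (37.0%). The scrambled array was lowest in 26 of 61 (42.6%), against 27.2% of all. The array labelled antisense was higher than both controls in 13 of 61 (21.3%), against 37.2% of all, made up of 1 SR, 2 hnRNP and 10 core probe sets, and lower than both in 21 of 61 (34.4%), against 32.0%. Among probe sets above the floor on the 3 arrays the untreated array was highest in 27 of 58 members (46.6%) and in 29.2% of all. The scrambled array was lowest in 26 of these 58 (44.8%) and in 31.7% of all. Probe sets of 1 gene share their source, and most of the gaps are within the yardstick, so these counts describe the 3 arrays and carry no test. With spike-in scaling the untreated array was highest in 3 members, and the share of all probe sets under that scaling is not given here. The 18S ribosomal RNA ratio was lowest on the untreated array, at 1.72, and its part in this order was not tested.

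**Figure D3:**
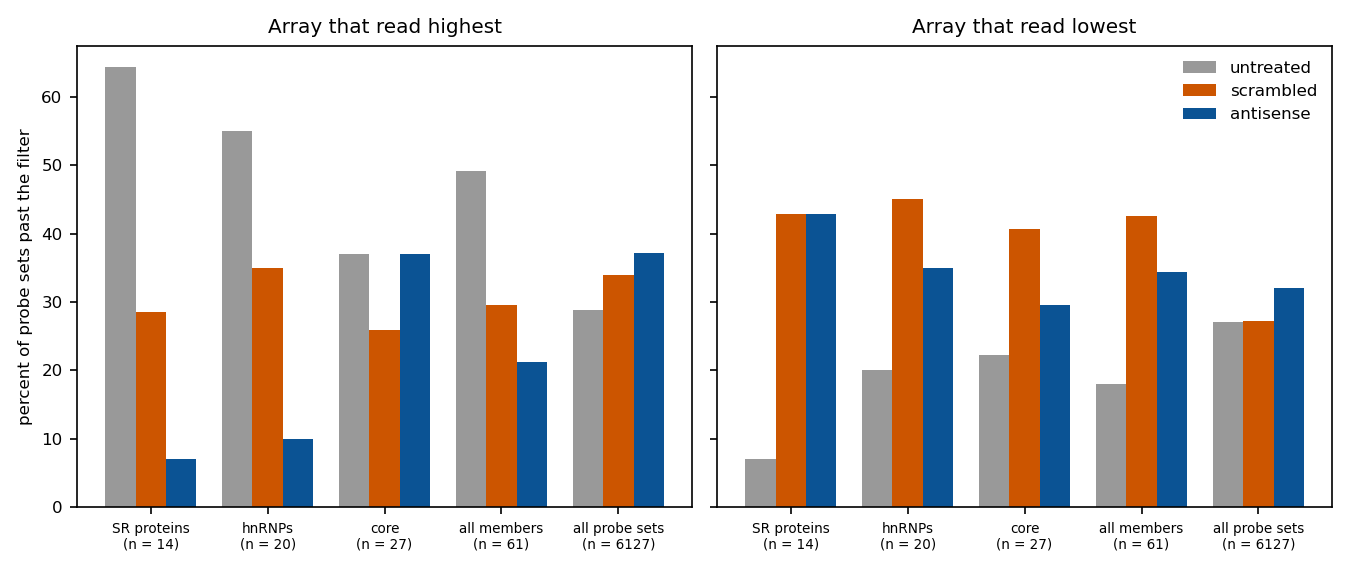
Percent of probe sets past the filter that read highest (left) or lowest (right) on the untreated, scrambled or antisense array, by class and over all probe sets; ties at the floor count for no array. The untreated array is highest in 64.3% of SR, 55.0% of hnRNP and 37.0% of core probe sets, against 28.8% of all.

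Readings of the same gene by several probe sets show how far the differences between arrays vary with the probe set. Suffixed probe sets are among them, as are both of Sf3a2, which are not independent. For 10 genes with at least 2 probe sets above the floor on the 3 arrays, the sign of the difference from untreated was the same in all probe sets for 8, and that from scrambled for 7. The median range between probe sets of a gene was 0.22 on the log2 scale against untreated and 0.38 against scrambled. The same measures over all genes with several probe sets are not given here.

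A list of 131 other genes of splicing, outside the symbol rule, was read beside the members. Probe sets with 1 symbol were found for 94 genes, and 91 probe sets of 78 genes passed the filter. Their median differences over genes were 0.00 against untreated and 0.07 against scrambled. Of the 91 probe sets, 25 (27.5%) were lower than both controls and 31 (34.1%) higher. The untreated array was highest in 36 (39.6%), which is above the 28.8% of all probe sets and the 37.0% of core members and below the 49.2% of all members. A share above that of all probe sets is thus not particular to the members. The scrambled array was lowest in 41 (45.1%), against 42.6% of members, so that trait is not particular to the members. Beyond the yardstick against both controls were 4 (4.4%), near the 5.26% of all probe sets past the filter, of which 2.76% were higher and 2.50% lower. The 4 were higher, and they are Ddx17, an RNA helicase, Rbm17, a U2-linked factor, Strap, which serves the SMN complex that loads Sm rings, and Srpk1, a kinase that phosphorylates SR proteins.

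Ddx17 read 12082 (antisense), 5487 (scrambled) and 6099.8 (untreated), or 0.99 above untreated and 1.14 above scrambled on the log2 scale. Strap read 6775, 4657 and 4088, and Rbm17 15146, 11589 and 11515. Srpk1 read 1661 on the array labelled antisense and 709 on the scrambled array, and was below the floor on the untreated array at 209. In each the controls lay together or below and the array labelled antisense above. Clk1, another kinase of SR proteins, read 6221, 4609 and 4570, with differences of 0.44 from untreated and 0.43 from scrambled within a yardstick of 0.51. Cirbp, a cold-inducible RNA-binding protein gene, read below both controls, at 1022 against 2214 and 1907, with differences of -1.11 from scrambled and -0.90 from untreated around a yardstick of 0.94.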

How the data were processed

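RNA of 3 groups of LNC cells was measured on 1 Affymetrix array each. The authors deposited a table of linear intensity for 12654 probe sets, 66 of them controls. Between 24.8% and 27.9% of values were at or below 0. Software: not given in the sources used here. Each array was scaled to a common mean after removal of 2% at each end, a floor was set at 2 robust standard deviations of the values below 0 and log2 was taken (Python 3.11.15, numpy 2.4.6, pandas 2.3.3; statsmodels 0.14.6 for lowess). Symbols came from the platform annotation, with 363 probe sets of several symbols and 1949 unlisted ones unnamed, and the 69 member identifiers all matched RefSeq. With 1 array per group no test was made, and the number of arrays limits the precision. Thresholds were 1.5-fold, 2-fold and the yardstick. Named genes were 53 fixed members, of which 41 had a probe set with 1 symbol, the 3 highest and 3 lowest per class against both controls and the 2 highest and lowest on the scrambled array. All other members are named too, and other splicing genes when beyond the yardstick against both controls, with Clk1 and Cirbp chosen after their values were seen. Members and lists were chosen with earlier results of these data known. The counting was tested on simulated data. Other floors, scalings, filters and probe set rules were tried.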

Additional observations from a re-analysis of the deposited data

How the results depend on the processing

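Of the class values and counts recomputed under alternatives, 275 stayed within 0.1 on the log2 scale or 1.5 times of the count, and 41 moved. Counts of the array order and of the yardstick were added after seeing the data. Scaling to the spike-in controls moved most. The medians against untreated and scrambled became 0.41 and 0.50 for SR proteins, 0.42 and 0.51 for hnRNPs, 0.62 and 0.51 for core parts and 0.56 and 0.51 for all members, beside 0.58 and 0.48 for all genes. Probe sets higher than both controls became 11, 19, 24 and 54 in the same order of classes, and those lower than both 0, 1, 1 and 2. Those highest on the untreated array became 1, 1, 1 and 3. Beyond the yardstick, 17 were higher than both controls and 0 lower. At 1.5-fold 28 differed from untreated and 25 from scrambled, and at 2-fold 1 and 3. Shares of all probe sets under that scaling are not given here, so these counts are not results about the members. Under that scaling the called differences of Hnrnpa2b1 (0.16 and 0.17), Hnrnpd (0.17), Hnrnpm (0.10), Srsf3 (0.035) and U2af1 (0.27) reversed, by the construction of the shift.

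With a floor of 1 robust standard deviation, 8 members were 1.5-fold apart from untreated and 8 from scrambled, and 4 were 2-fold apart from untreated. With a floor of 4, 2 were 1.5-fold and 1 was 2-fold apart from untreated, and between the controls 4 and 1. Above the floor on the 3 arrays, 3 were 1.5-fold apart from untreated. Without suffixed probe sets, 2 were 1.5-fold and 1 was 2-fold apart from untreated, and between the controls 5 and 0, as fewer probe sets are counted. For these fold counts the shares of all probe sets are not given here. Without suffixed probe sets the SR median against scrambled was 0.11, 2 SR probe sets were lower than both controls and 6 core probe sets were highest on the untreated array. Srsf3 then changed sign against untreated, to 0.28, within the yardstick of 1.15 of its remaining probe set. Values as deposited, centring on the median, quantile normalization, lowess centring, no filter, the mean over probe sets of a gene and leaving out probe sets above 50000 moved no class median or count by these limits. The mean over probe sets gives no count of probe sets. These limits pass over the loss of a single call. Probe set 93117_at of Hnrnpa2b1 was no longer beyond the yardstick against scrambled with lowess centring (-0.27 against 0.32) or quantile normalization (-0.28 against 0.33). No paired analysis was possible because each group is 1 array, and no array could be left out. Values below the floor of 595.9 have no order.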
